A study of Mus musculus with 16 samples.

Results

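The comparison described here sets enriched cbp+/- hippocampus against standard-cage wild-type hippocampus, and its question is whether enrichment brings the mutant tissue to the wild-type baseline or past it. It rests on the titles of the arrays: 3 arrays of cbp+/- mice after environmental enrichment and 5 arrays of wild-type mice from standard cages, 8 of the 16 arrays of the study. Each array was hybridised with pooled hippocampal RNA of 4 female mice, so the comparison stands for 12 enriched cbp+/- animals and 20 standard-cage wild-type animals. The mice were 3 months old, from an F2 cross of C57BL/6J with DBA, and the wild-type mice were littermates. cbp+/- mice are heterozygous for a deficiency of Crebbp in every cell. Enrichment lasted 2 weeks in a large box with tubing, toys and running wheels, and brains were taken at least 16 hours after its contents were last changed. The pools are described as independent biological replicates. The other 8 arrays (5 of standard-cage cbp+/- and 3 of enriched wild-type mice) entered the fit to share the estimate of the spread, and their values are given where they place the distance from the baseline. Because both genotype and housing differ between the compared groups, their parts in a difference cannot be told apart from this comparison alone. Arrays are named by genotype, housing and replicate number: CBP_EE for enriched cbp+/-, CBP_SC for standard-cage cbp+/-, WT_EE for enriched wild type and WT_SC for standard-cage wild type.

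CBP is a coactivator with histone acetyltransferase activity. When neurons are active, kinases phosphorylate the transcription factor CREB, which then recruits CBP or its paralogue p300 to promoters that carry a cAMP response element. Genes read in this way include immediate early transcription factors, the neurotrophin gene Bdnf and several neuropeptide precursors. Heterozygous loss of the human gene causes Rubinstein-Taybi syndrome, and enrichment is known in rodents to raise neurotrophin levels and to favour the survival of newborn granule neurons in the dentate gyrus.

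Values are log2 of the deposited intensity of each probe set, and a difference is the CBP_EE mean minus the WT_SC mean on that scale, with the standard error (SE) and 95% interval of limma's moderated fit. In all, 21780 probe sets with exactly 1 gene symbol were tested. The array medians were 77.7 to 82.4 in linear intensity units for CBP_EE and 77.4 to 79.1 for WT_SC, and no 2 arrays held identical values (correlations of log2 values 0.966 to 0.998). Clustering of all arrays gave 4 sets that cross the groups. CBP_EE_1 and CBP_EE_2 lie in set 1 with WT_SC_1, WT_SC_2 and WT_SC_4, whereas CBP_EE_3 lies in set 3 with WT_SC_5, and WT_SC_3 lies in set 2. Differences within set 1 (2 arrays against 3) and within set 3 (1 against 1, with no replicate) are therefore given beside the main values. Crebbp itself had a log2 signal of 9.37, 9.33 and 9.37 on the arrays labelled CBP_EE, against 9.32, 9.41, 9.55, 9.64 and 9.21 on the WT_SC arrays. The groups overlapped, and the difference was -0.068 (SE 0.11, 95% interval -0.31 to 0.18). Standard-cage cbp+/- averaged 9.57 ± 0.22 (SD, n = 5), above WT_SC at 9.43 ± 0.18 (SD, n = 5). Enriched wild type averaged 9.26 ± 0.082 (SD, n = 3), so the signal did not follow the genotype labels. Whether the targeted allele still makes a transcript that this probe set reads was not tested, so this check of the labels is only partial.

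No probe set separated enriched cbp+/- from standard-cage wild type after adjustment for multiple testing. With limma and Benjamini-Hochberg adjustment, 0 of 21780 probe sets (0%) passed the threshold of 0.05, and the smallest adjusted p was 0.970. An unadjusted p under 0.05 was reached by 471 probe sets that were higher in CBP_EE (2.16%) and 488 that were lower (2.24%). All 3 CBP_EE arrays lay above all 5 WT_SC arrays for 419 probe sets (1.92%) and below them for 445 (2.04%). The absence of calls does not show equal levels, so the intervals bound the distance. The 95% interval lay within 0.5 log2 units of zero for 18624 probe sets (85.5%), and within 1 log2 unit for 99.6%. Among the brighter probe sets, those at or above the median of mean signal, 73.6% were bounded within 0.5. The median distance from the difference to either bound was 0.203. The typical absolute difference was 0.066 against the wild-type baseline. Beside it, CBP_EE against CBP_SC gave a typical absolute difference of 0.061 with 615 probe sets at an unadjusted p under 0.05, and CBP_SC against WT_SC gave 0.036 with 215. These 3 comparisons share arrays, the groups differ in number, and with limma none of them had an adjusted p under 0.05 (count 0 in each).

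Over all probe sets the difference was slightly positive, with 57.5% higher in CBP_EE and a median of 0.015. The brighter probe sets leaned the other way, with 44.4% higher and a median of -0.020, whereas 70.6% of the dimmer ones were higher, with a median of 0.029. This lean depended on the scaling of the arrays. In classes of 2178 probe sets by mean signal, the median difference ran from -0.038 (median log2 signal 8.53) to 0.055 (5.86). With quantile normalization the class medians ran from -0.010 to 0.0073 only. List medians below are to be read beside the medians of all, brighter and dimmer probe sets. Counts of list members at an unadjusted p under 0.05 are to be read beside 2.16% higher and 2.24% lower over all probe sets. Counts of members without overlap are to be read beside 1.92% above and 2.04% below. With limma's array weights, which give each array its own precision, the counts were 2394 higher and 1185 lower. CBP_EE_1 then carried a weight of 8.63, against 0.984 and 0.409 for CBP_EE_2 and CBP_EE_3.

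Neuropeptides and secreted factors whose genes are CREB targets were the list with the highest median. Of 15 measured members 14 were higher in enriched cbp+/- than in standard-cage wild type, with a median difference of 0.21 and a range of -0.00047 (Igf1) to 0.60 (Npy). Of these, 3 members (Npy, Bdnf and Adcyap1) had an unadjusted p under 0.05 in the higher direction, and 0 passed after adjustment. All CBP_EE arrays lay above all WT_SC arrays for 2 members, Bdnf and Nts (neurotensin). The median was 0.19 within set 1 and 0.17 within set 3, where 14 and 9 of the 15 members were higher. Of the 15, 6 were among the dimmer probe sets, of which 70.6% were higher. With quantile normalization 12 of the 15 were higher, at a median of 0.19, and Adcyap1, a dimmer member, stood at 0.19.

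Npy encodes neuropeptide Y, an inhibitory peptide of hippocampal interneurons. Its log2 signal was 9.53, 9.60 and 10.11 on the CBP_EE arrays, against 8.88, 9.02, 9.32, 8.84 and 9.69 on the WT_SC arrays. CBP_EE_3 lay above every wild-type array, while the other two lay above all but WT_SC_5. The difference was 0.60, or 1.51-fold (SE 0.20, 95% interval 0.17 to 1.03), with 0.65 within set 1 and 0.43 within set 3. In the main fit limma's adjusted p for Npy was 0.970. With the array set as a factor, limma's adjusted p was 0.0517. The sets were clustered from these same values, so the smaller p carries no added support.

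Bdnf encodes brain-derived neurotrophic factor, which promotes the survival of neurons and strengthens synapses. It read 7.18, 7.23 and 7.22 in CBP_EE, against 6.91, 6.95, 6.97, 6.62 and 6.88 in WT_SC, so that the groups did not overlap. The difference was 0.34, or 1.27-fold (SE 0.10, 95% interval 0.12 to 0.57), with 0.38 within set 1 and 0.33 within set 3. Standard-cage cbp+/- arrays averaged 6.75 ± 0.20 (SD, n = 5), and enriched wild-type arrays averaged 7.21 ± 0.10 (SD, n = 3), as in CBP_EE (7.21 ± 0.029, SD, n = 3).

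Penk, the precursor of the enkephalins, read 9.19, 9.14 and 9.74 in CBP_EE and 8.97, 9.26, 8.63, 8.14 and 9.21 in WT_SC. The groups overlapped, and the difference of 0.52 had an interval that includes 0 (SE 0.28, -0.095 to 1.13). Striatal genes, which share Penk and Tac1 with this list, had 7 of 12 members higher with a median of 0.029 (0.14 within set 1, -0.035 within set 3). Whether tissue from neighbouring regions contributed was not tested. Adcyap1 encodes PACAP, a peptide that raises cAMP. It read 6.42, 6.25 and 6.43 in CBP_EE, against 6.11, 6.11, 6.18, 5.98 and 6.26 in WT_SC. The arrays overlapped only between CBP_EE_2 and WT_SC_5, and the difference was 0.24 (SE 0.082, 95% interval 0.062 to 0.41). Other named members had intervals that include 0: Scg2 (secretogranin II, a granule protein) at 0.21, Nptx2 (a pentraxin that clusters AMPA receptors) at 0.26, Vgf (a secreted peptide precursor) at 0.12, Sst (somatostatin) at 0.067, Pdyn (prodynorphin) at 0.024 and Cck (cholecystokinin) at 0.018.

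**Figure D1:**
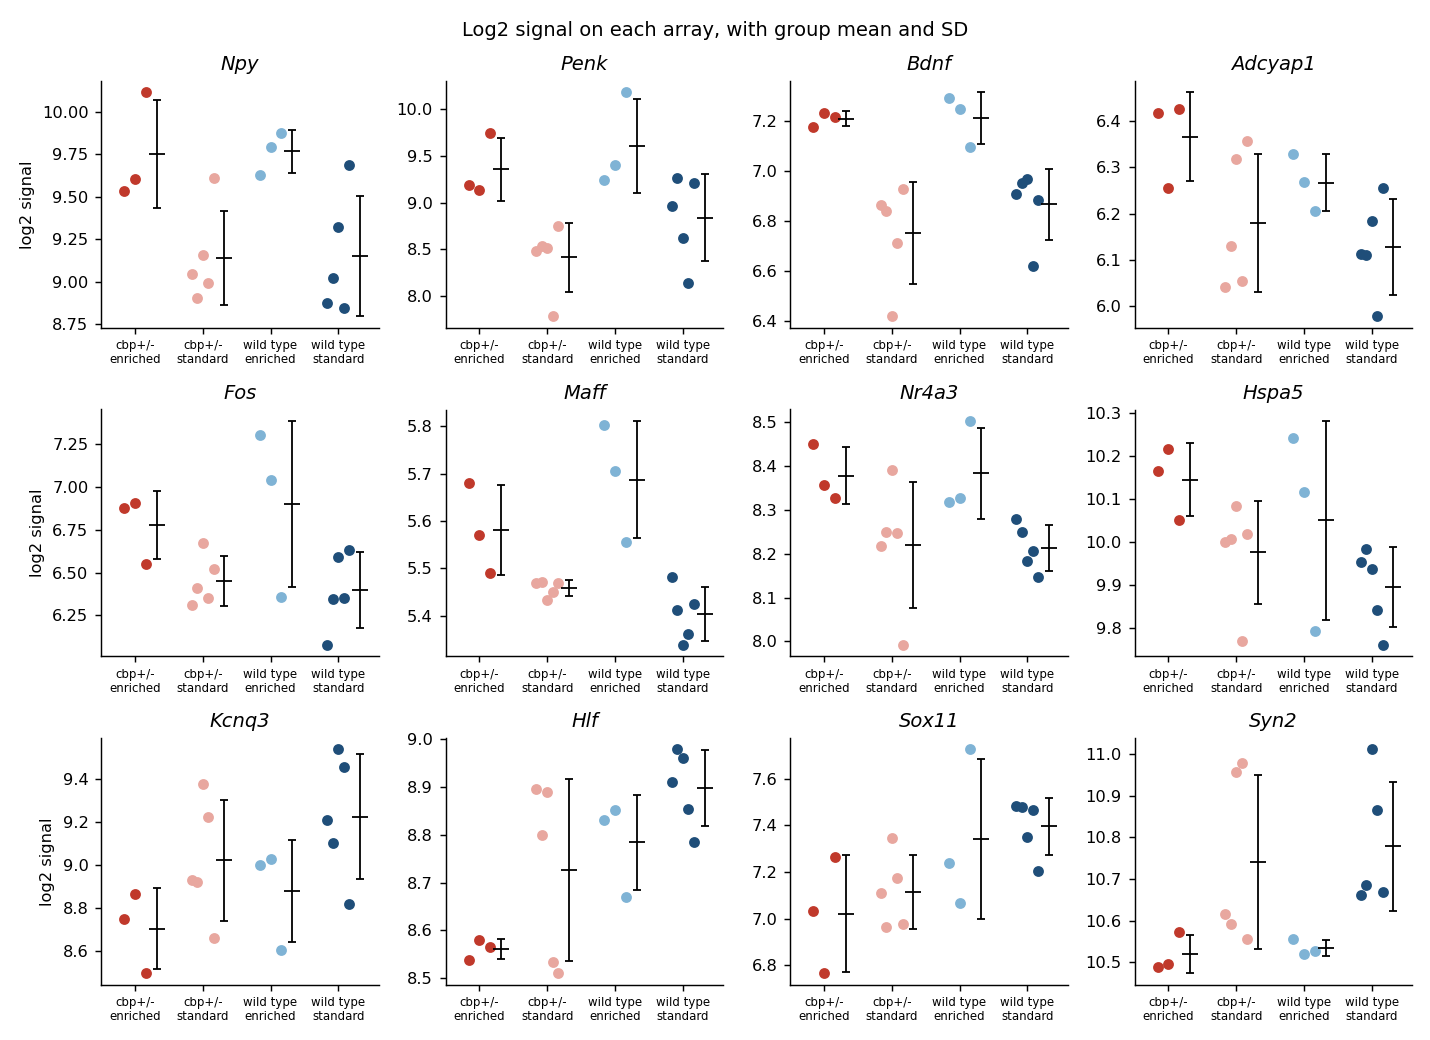
Log2 signal of 12 genes on each array (y axis) in enriched cbp+/-, standard-cage cbp+/-, enriched wild-type and standard-cage wild-type groups from left to right, with points for arrays and bars for the group mean and SD. Bdnf, Maff, Nr4a3 and Hspa5 lie higher on all 3 enriched cbp+/- arrays than on all 5 standard-cage wild-type arrays, Hlf and Syn2 lie lower on all 3, and the remaining genes overlap.

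The start regions of some of these genes carry the letters that CREB recognises. Windows of 300 bases, from 250 before to 50 after each annotated start, were taken from RefSeq (GRCm38.p6) and searched on both strands for the core site TGACG and for the full palindrome TGACGTCA, which contains the core site on each strand. Of all 32851 windows, 20.8% held the core site and 1.79% the full site. Among windows of the CREB-target list 9 of 19 held the core site (47.4%) and 2 held the full site. The core site stood in 8 of the 11 genes that had a window, beside 23.0% of all genes. Penk and Vgf were among the members without a window. The 2 windows of Adcyap1 overlap and hold the same core site. Among immediate early transcription factors 17 of 24 windows (70.8%, 14 of the 18 genes with a window) held the core site and 2 the full site. Chaperone genes had the core site in 8 of 24 windows (33.3%) and potassium channel genes in 2 of 23. A match describes letters, not binding. The CREB-target list was drawn up from genes known as CREB targets, and immediate early factors are known as such too. A larger share of core sites in these lists therefore comes with the choice of members. Matches did not go with the size of the difference in every member: the window of Npy, which had the largest difference of the CREB-target list, held 0 core sites, and Sst, at 0.067, carries the full site. The windows below were chosen after their values and matches were seen, because Bdnf, Maff and Nr4a3 had no overlap between the groups and Scg2 carries the full site. Capitals mark the matches, and each window is read 5′ to 3′ on the gene's strand. The Bdnf window, 1 of 7 annotated for the gene and the one with a match, lies at chr2:109692186-109692485 (plus strand). Scg2 lies at chr1:79439977-79440276 (minus strand), Maff at chr15:79347270-79347569 (plus strand, 1 of 3 windows) and Nr4a3 at chr4:48045055-48045354 (plus strand), where the core site stands 4 times.
Bdnf: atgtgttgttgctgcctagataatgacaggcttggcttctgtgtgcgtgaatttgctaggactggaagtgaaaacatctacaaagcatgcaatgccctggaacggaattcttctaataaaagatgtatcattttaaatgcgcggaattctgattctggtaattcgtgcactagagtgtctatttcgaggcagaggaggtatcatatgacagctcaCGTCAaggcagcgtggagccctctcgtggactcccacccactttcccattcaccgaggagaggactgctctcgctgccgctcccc
Scg2: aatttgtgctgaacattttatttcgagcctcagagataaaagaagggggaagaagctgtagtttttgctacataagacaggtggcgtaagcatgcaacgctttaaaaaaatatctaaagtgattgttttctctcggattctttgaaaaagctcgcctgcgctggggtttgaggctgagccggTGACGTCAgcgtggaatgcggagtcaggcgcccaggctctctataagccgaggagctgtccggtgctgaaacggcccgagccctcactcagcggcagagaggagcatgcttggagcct
Maff: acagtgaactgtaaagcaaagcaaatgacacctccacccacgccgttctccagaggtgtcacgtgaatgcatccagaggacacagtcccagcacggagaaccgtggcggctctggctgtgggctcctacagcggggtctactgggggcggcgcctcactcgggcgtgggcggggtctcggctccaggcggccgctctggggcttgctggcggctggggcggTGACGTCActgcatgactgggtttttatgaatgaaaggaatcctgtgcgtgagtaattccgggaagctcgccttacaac
Nr4a3: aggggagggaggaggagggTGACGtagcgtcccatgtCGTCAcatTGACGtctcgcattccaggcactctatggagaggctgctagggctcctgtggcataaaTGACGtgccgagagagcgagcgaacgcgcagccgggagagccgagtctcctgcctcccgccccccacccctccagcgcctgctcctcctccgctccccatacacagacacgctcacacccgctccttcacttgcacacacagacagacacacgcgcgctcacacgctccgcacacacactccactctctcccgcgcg

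Immediate early transcription factors, which neurons transcribe within minutes of activity, had 17 of 22 members higher and a median of 0.10. Of these, 2 (Maff and Nr4a3) had an unadjusted p under 0.05, and 0 passed after adjustment. The median was 0.17 within set 1 and 0.038 within set 3. Of the 22, 9 were among the dimmer probe sets, of which 70.6% were higher. With quantile normalization 17 were again higher, at a median of 0.069, and Maff, a dimmer member, stood at 0.13. Maff, a small Maf factor, read 5.68, 5.57 and 5.49 in CBP_EE, against 5.48, 5.41, 5.34, 5.36 and 5.42 in WT_SC. Nr4a3, an orphan nuclear receptor, read 8.45, 8.36 and 8.33 in CBP_EE, against 8.28, 8.25, 8.18, 8.21 and 8.15 in WT_SC. Neither gene's groups overlapped, and both differences were small, 0.18 for Maff (SE 0.057) and 0.17 for Nr4a3 (SE 0.074). Fos, an AP-1 component, read 6.88, 6.91 and 6.55 in CBP_EE and 6.08, 6.35, 6.59, 6.35 and 6.63 in WT_SC. CBP_EE_1 and CBP_EE_2 lay above every wild-type array and CBP_EE_3 among them. The difference of 0.38 (SE 0.18, 95% interval -0.0051 to 0.77) was 0.63 within set 1 and -0.080 within set 3. Classical members with wide spread had intervals that include 0, among them Nr4a1 at 0.28, Egr1 at 0.18, Npas4 at 0.11, Junb at 0.097, Fosb at 0.013 and Egr3 at -0.064. The median depended on single arrays: it was 0.029 without CBP_EE_2, 0.053 without WT_SC_1 and 0.16 without WT_SC_3, which stood above the other wild-type arrays in the level of this list.

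Activity-regulated effectors at the synapse and in signalling had 16 of 19 members higher, with a median of 0.11 and 0 members at an unadjusted p under 0.05. Rgs4, a brake on G protein signalling, had a difference of 0.29 (SE 0.14), Ptgs2 (cyclooxygenase 2) of 0.28 (SE 0.13), and Arc, which trims AMPA receptors from synapses, of 0.24 (SE 0.34). Inhba, an activin subunit, read 6.56, 6.62 and 6.59 in CBP_EE, against 6.55, 6.48, 6.47, 6.40 and 6.52 in WT_SC. Its groups did not overlap, yet the difference was only 0.11 (SE 0.089). Among neurotrophins, exercise growth factors and their receptors, 6 of 15 were higher with a median of -0.011. Vegfa, an angiogenic factor, read 7.91, 7.87 and 7.68 in CBP_EE, against 7.62, 7.63, 7.53, 7.70 and 7.44 in WT_SC. Of the CBP_EE arrays, CBP_EE_3 lay among the wild-type arrays, and the difference was 0.24 (SE 0.092, 95% interval 0.039 to 0.43). Igf1 stood at the baseline with a difference of -0.00047 (95% interval -0.13 to 0.13).

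A panel of 38 genes named by role shows where standard-cage cbp+/- stood on the way from the wild-type baseline to the enriched mutant. The panel was chosen with earlier results of these data known, so its counts describe these genes only. Enriched cbp+/- lay above the baseline for 22 of them, beside 57.5% of all tested probe sets. The 95% interval excluded 0 for 4 (Bdnf, Npy and Vegfa higher, Grik2 lower). Over all probe sets 4.40% had an unadjusted p under 0.05. For Bdnf, CBP_EE minus WT_SC was 0.34, CBP_EE minus CBP_SC was 0.46 and CBP_SC minus WT_SC was -0.11 (SE 0.090 for the last). Penk had 0.52, 0.94 and -0.43 (SE 0.25) in the same order, and Vgf had 0.12, 0.30 and -0.18 (SE 0.10). For these 3 genes, as for 12 of the 38 in all, the enriched mutant mean lay past the wild-type baseline while the standard-cage mutant mean lay below it. How often this order held over all probe sets was not counted, so the 12 of 38 has no background to be read beside. The distance of the standard-cage mutant from the baseline was less than 2 SE in each of the 3. Npy differed in this respect, since standard-cage cbp+/- was at the baseline (-0.0088, SE 0.17) and CBP_EE minus CBP_SC was 0.61 (SE 0.20). Its level was also high on the standard-cage arrays of set 3, at 9.61 on CBP_SC_5 and 9.69 on WT_SC_5. Vegfa stood above the baseline in standard-cage cbp+/- already (0.14). The values of a gene are not independent of one another, because the 3 differences share arrays and any 2 of them fix the remaining one.

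**Figure D2:**
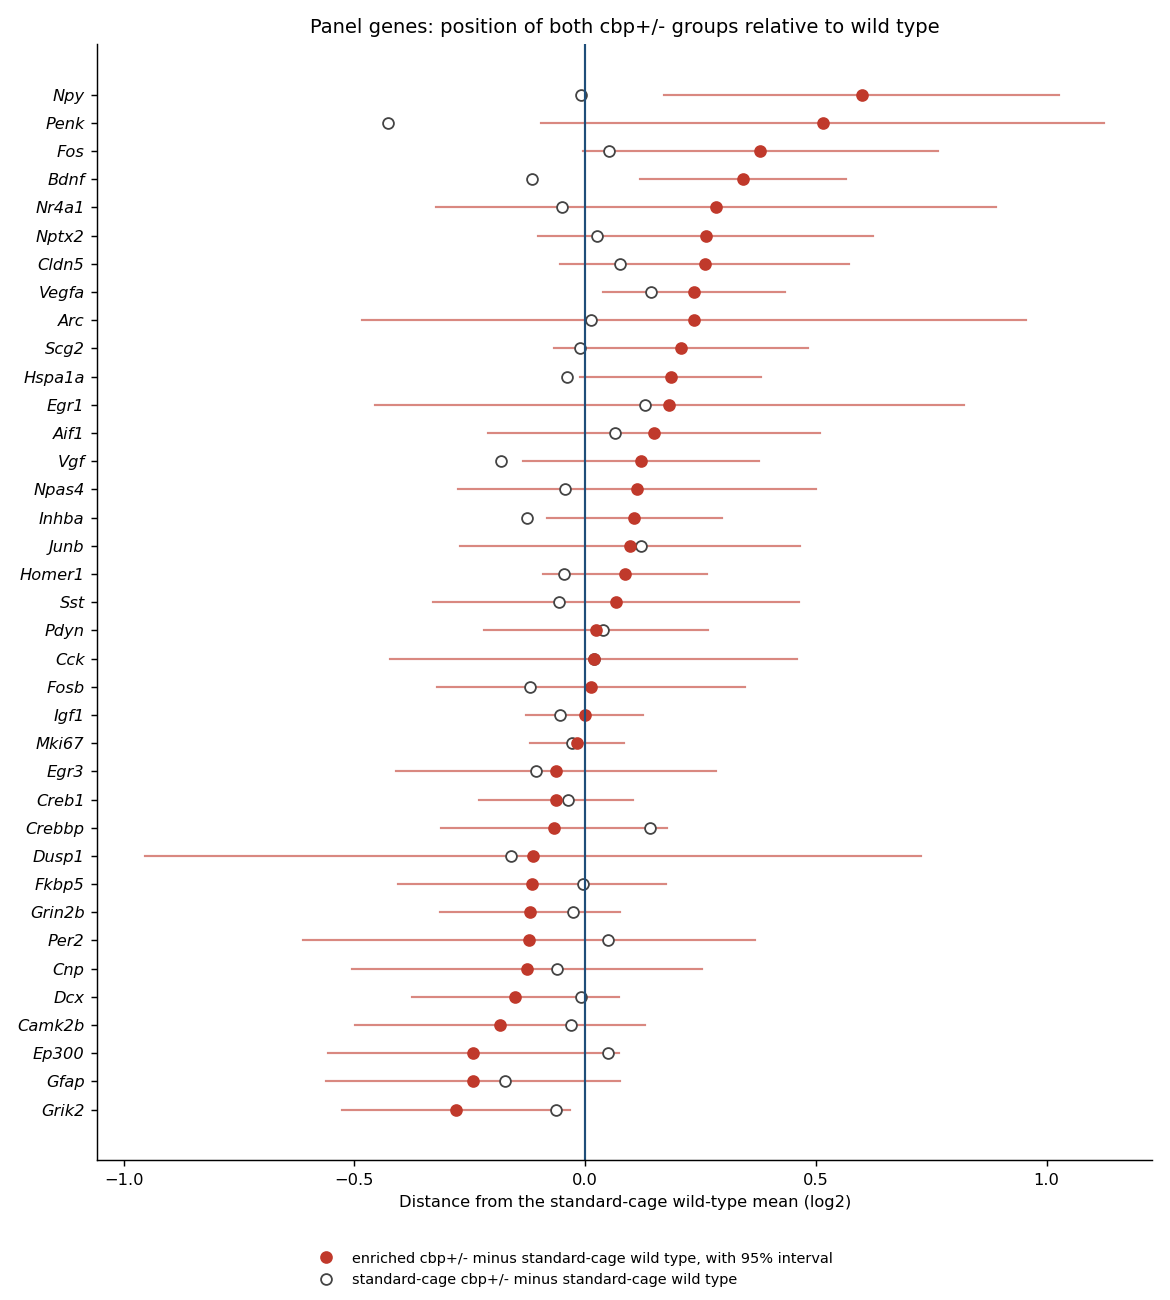
Distance of each panel gene from the standard-cage wild-type mean (x axis, log2, the vertical line is the baseline), with filled points and 95% intervals for enriched cbp+/- and open points for standard-cage cbp+/-. Ttr, whose interval is far wider, is not drawn; Npy, Bdnf and Vegfa have intervals to the right of the baseline and Grik2 has one to the left.

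Genes of CBP, p300, the CREB family and CREB coactivators showed no common direction, with 5 of 12 higher and a median of -0.066 (-0.050 within set 1, 0.13 within set 3, -0.031 with quantile normalization). Ep300, which encodes p300, read 8.28, 8.19 and 8.17 in CBP_EE and 8.42, 8.54, 8.69, 8.58 and 8.05 in WT_SC. All CBP_EE arrays lay below every wild-type array but WT_SC_5, and the difference was -0.24 (SE 0.15, 95% interval -0.56 to 0.074). Within set 3 it was 0.12. Crem, whose inducible product represses cAMP response elements, had a difference of 0.27 (SE 0.13) and Creb1 one of -0.064 (SE 0.078). Among lysine acetyltransferases and deacetylases 8 of 24 were higher, with a median of -0.076. Ncoa1, a nuclear receptor coactivator, read 8.94, 8.95 and 8.89 in CBP_EE, against 9.11, 9.17, 9.35, 9.35 and 8.98 in WT_SC, without overlap. It had a difference of -0.27 (SE 0.11) and Hdac1, a histone deacetylase, one of 0.18 (SE 0.073). These 2 genes had an unadjusted p under 0.05, 1 in each direction. Of the 49 tested genes within 5 Mb of Crebbp on chromosome 16 in the RefSeq table, 27 were higher and 22 lower, with a median of 0.013 and 2 at an unadjusted p under 0.05 in each direction.

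Heat shock proteins and chaperones of the endoplasmic reticulum were higher as a group in the counts, with 20 of 21 members above the baseline and a median of 0.13. Of these, 3 (Hspa5, Pdia6 and Hsph1) had an unadjusted p under 0.05 and 0 passed after adjustment. The median was 0.063 within set 1 and 0.23 within set 3, with 15 and 21 members higher. Hspa5 encodes BiP, the main chaperone of the endoplasmic reticulum. It read 10.16, 10.22 and 10.05 in CBP_EE, against 9.95, 9.98, 9.94, 9.84 and 9.76 in WT_SC. Its groups did not overlap, and the difference was 0.25 (SE 0.094, 95% interval 0.047 to 0.45). Pdia6, a protein disulphide isomerase, had a difference of 0.28 (SE 0.13), and Hspa1a, an inducible heat shock protein, one of 0.19 (SE 0.092), both with all 3 CBP_EE arrays above all WT_SC arrays. Subunits of oxidative phosphorylation had 26 of 31 members higher and a median of 0.11, with 0 at an unadjusted p under 0.05. That value rests on CBP_EE_3, without which the median was -0.026 (0.17 without CBP_EE_2). The level of the list on CBP_EE_3 was 0.43 and on WT_SC_5, of the same array set, 0.35, against -0.17 to 0.014 on the other wild-type arrays.

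Genes of neuronal excitability and of the excitatory synapse lay on the other side of the baseline. Potassium channel genes had 17 of 19 members lower and the lowest median of all lists, -0.21 (-0.23 within set 1, -0.093 within set 3). Of these, 6 had an unadjusted p under 0.05 and 0 passed after adjustment. Over all probe sets 2.24% were lower at that p, with a larger share among long genes (below, 164 of 1087 in the longest class). Kcnd2 and Kcnd3 encode the A-type channels of dendrites. Kcnd2 read 9.54, 9.74 and 9.63 in CBP_EE, against 9.90, 9.83, 9.93, 9.95 and 9.78 in WT_SC. Kcnd3 read 7.85, 7.82 and 7.91 in CBP_EE, against 8.02, 7.95, 8.09, 8.17 and 8.20 in WT_SC. In both genes every CBP_EE array lay below every WT_SC array, with differences of -0.24 (SE 0.077) and -0.23 (SE 0.084). Kcnq3, a subunit of the M-current channel, read 8.75, 8.87 and 8.50 in CBP_EE, against 9.21, 9.10, 9.54, 9.46 and 8.82 in WT_SC. CBP_EE_2 lay just above WT_SC_5, and the difference was -0.52, or 0.70-fold (SE 0.18, 95% interval -0.90 to -0.14).

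Excitatory synapse and glutamate receptor genes had 24 of 26 members lower and a median of -0.14, with 2 at an unadjusted p under 0.05 (Syn2 and Grik2). The median was -0.19 within set 1, 0.0044 within set 3 and -0.21 without WT_SC_5. Syn2, which encodes the vesicle protein synapsin II, read 10.49, 10.50 and 10.57 in CBP_EE, against 10.66, 10.69, 11.01, 10.87 and 10.67 in WT_SC. Its groups did not overlap, and the difference was -0.26 (SE 0.11). Grik2, a kainate receptor subunit, read 9.09, 9.25 and 9.05 in CBP_EE, against 9.66, 9.56, 9.45, 9.15 and 9.23 in WT_SC, with a difference of -0.28 (SE 0.12). CBP_EE_2 lay above WT_SC_4 and WT_SC_5 there. Grin2b (an NMDA receptor subunit) at -0.12, Camk2b (a subunit of CaM kinase II) at -0.18 and Grm5 (a metabotropic glutamate receptor) at -0.13 had intervals that include 0. Genes of GABA signalling and interneurons had 11 of 16 lower and a median of -0.072 (-0.0019 without CBP_EE_3, -0.033 without WT_SC_3), with 1 at an unadjusted p under 0.05 (Calb2, the calretinin gene, -0.25, SE 0.11).

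Circadian clock genes and outputs had 16 of 18 members lower and a median of -0.17 (-0.065 within set 1, -0.15 within set 3, -0.068 without CBP_EE_3). Hlf encodes a transcription factor of the PAR bZIP family under clock control. It read 8.54, 8.58 and 8.57 in CBP_EE, against 8.91, 8.98, 8.96, 8.85 and 8.78 in WT_SC, without overlap, and the difference was -0.34 (SE 0.089, 95% interval -0.53 to -0.14). It was the 1 member of this list at an unadjusted p under 0.05. Bhlhe41, a repressor of the clock, had a difference of -0.40 (SE 0.19) and Tef, a relative of Hlf, one of -0.18 (SE 0.095). Per2, a core clock gene, stood at -0.12 (SE 0.23). The hour at which each pool was dissected was not used here.

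Markers of principal cells and of newborn neurons were mostly below the baseline. Of the markers that define hippocampal principal cells against neighbouring tissue, 9 of 11 were lower in CBP_EE, with a median of -0.13 (0.0096 within set 3, -0.22 without WT_SC_5, -0.23 without CBP_EE_3) and 0 at an unadjusted p under 0.05. Prox1, the transcription factor of granule cells, averaged 8.22 ± 0.11 in CBP_EE (SD, n = 3) and 8.50 ± 0.16 in WT_SC (SD, n = 5), so this mark of the tissue was present in both. In bulk tissue, fewer cells of a type and less RNA per cell cannot be told apart. Immature granule neuron genes had 14 of 16 lower and a median of -0.14 (-0.17 within set 1, -0.036 within set 3). Of the 16, 4 had an unadjusted p under 0.05 (Sox11, Sox4, Dpysl3 and Calb2), beside 2.24% of all probe sets lower at that p. Sox11, a transcription factor of immature neurons, read 7.03, 6.77 and 7.27 in CBP_EE, against 7.48, 7.48, 7.35, 7.47 and 7.20 in WT_SC. CBP_EE_3 lay above WT_SC_5, and the difference of -0.37 (SE 0.14) was -0.58 within set 1 and 0.064 within set 3. Standard-cage cbp+/- was lower too, with a Sox11 difference of -0.28 from the baseline. Dcx, the doublecortin gene, had a difference of -0.15 (SE 0.10, 95% interval -0.38 to 0.074) and Mki67, a marker of dividing cells, one of -0.017 (SE 0.047).

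Mature dentate granule cell markers had 11 of 15 lower and a median of -0.11 (-0.072 without CBP_EE_3). Of the 15, 2 had an unadjusted p under 0.05 (Dock10 and Stxbp6), beside 2.24% of all probe sets lower at that p. The CBP_EE arrays lay below all WT_SC arrays for 4 of the 15, beside 2.04% of all probe sets. Dock10, a guanine exchange factor, read 7.998, 8.07 and 8.12 in CBP_EE, against 8.41, 8.27, 8.16, 8.39 and 8.30 in WT_SC. Every CBP_EE array was below every WT_SC array, with a difference of -0.25 (SE 0.078). Pyramidal cell markers of CA1 to CA3 had 13 of 17 lower and a median of -0.13 (-0.077 without CBP_EE_3). Among them Rgs14, which is enriched in CA2 and limits plasticity there, read 7.81, 7.72 and 7.88 in CBP_EE, against 7.95, 7.93, 8.30, 8.22 and 8.15 in WT_SC. Its groups did not overlap either, and the difference was -0.31 (SE 0.11, -0.27 within each of set 1 and set 3).

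The potassium channel and excitatory synapse lists consist in large part of long genes, and over the brighter probe sets the difference followed gene span. The median span was 213 kb for the excitatory synapse list and 196 kb for potassium channels, but 8.05 kb for the CREB-target list and 5.32 kb for immediate early transcription factors. Among other lists with medians below the baseline, the median span was 14.3 kb for immature granule neuron genes and 32.7 kb for circadian genes. It was 38.7 kb for pyramidal cell markers and 52.8 kb for mature dentate granule cell markers. Brighter probe sets were split into 10 classes of 1087 by the span of the gene in the RefSeq table. The median difference was 0.064 in the shortest class (median span 2.63 kb, 68.1% higher) and -0.12 in the longest (277 kb, 17.7% higher). It was lower in each class than in the one before. The classes at 16.0, 31.6 and 45.9 kb had medians of 0.015, -0.019 and -0.036. At an unadjusted p under 0.05 the longest class held 1 higher and 164 lower probe sets, the shortest 20 higher and 1 lower. CBP_EE minus CBP_SC spanned 0.045 in the shortest class and -0.088 in the longest, and CBP_SC minus WT_SC spanned 0.014 and -0.036. The same medians were 0.050 and -0.11 when array set entered the fit as a factor, and 0.073 and -0.10 after quantile normalization.

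Array by array, the longest class minus the shortest class was -0.048, -0.047 and -0.24 in CBP_EE, against 0.24, 0.18, -0.0024, 0.10 and -0.18 in WT_SC. The groups overlapped through WT_SC_5, which lay below CBP_EE_1 and CBP_EE_2. CBP_SC_5, of the same array set, had the lowest value of all (-0.29), while the other CBP_SC arrays had 0.060 to 0.10 and the WT_EE arrays -0.059 to 0.044. Gene span moves with the potassium channel and synapse lists, and its part in the differences of these and the other lists was not tested.

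**Figure D3:**
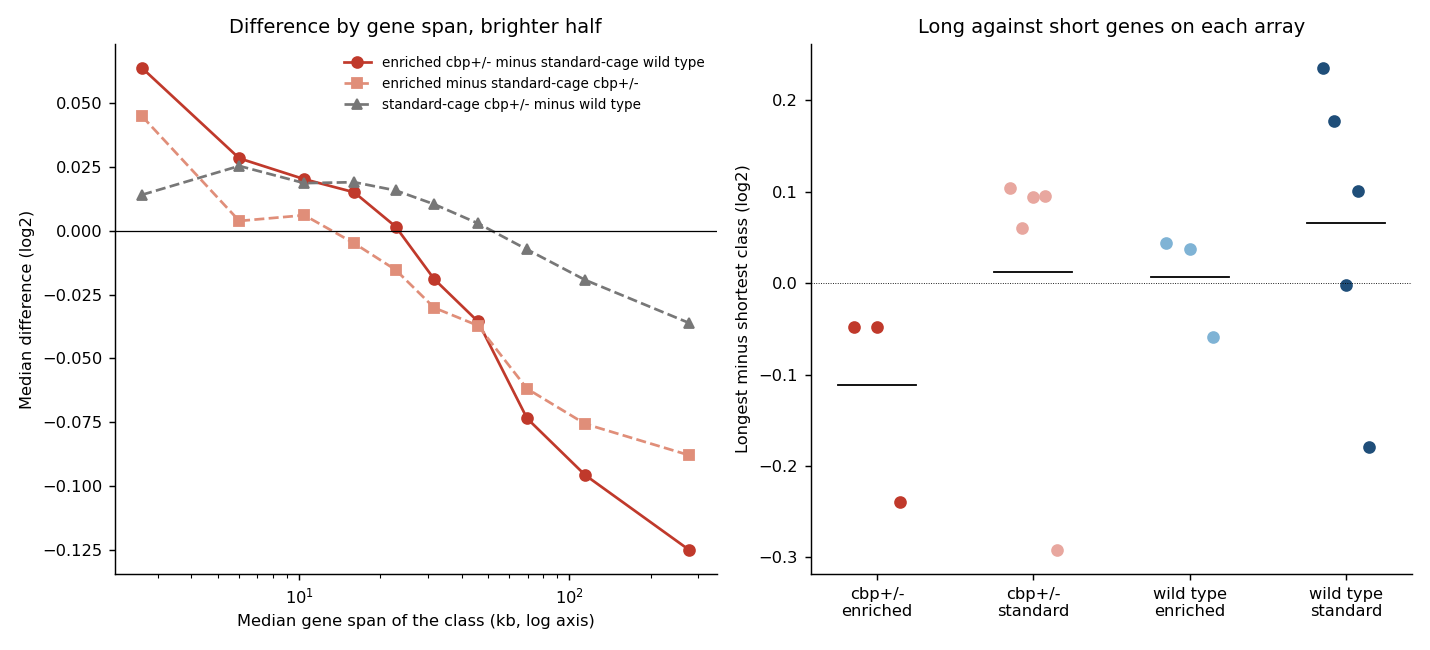
Left, median difference (log2) in 10 classes of gene span (log axis, kb) for enriched cbp+/- minus standard-cage wild type, enriched minus standard-cage cbp+/- and standard-cage cbp+/- minus wild type; right, longest minus shortest class on each array, with the group mean as a line. In the left panel the first comparison stands at -0.12 for the longest genes, and in the right panel WT_SC_5 at -0.18 lies among the enriched cbp+/- arrays.

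Markers of glia, vessels and neighbouring tissue had list medians between -0.084 and 0.096. Oligodendrocyte genes had 13 of 18 lower (median -0.084, 0.041 within set 3), their progenitors 8 of 10 lower (median -0.068, 0.021 within set 1) and astrocyte genes 12 of 17 lower (median -0.056). Cnp, a myelin enzyme, had a difference of -0.13 (SE 0.18), and Gfap, the astrocyte filament, one of -0.24 (SE 0.15). Pdgfra, the receptor of oligodendrocyte progenitors, had the 1 unadjusted p under 0.05 in these 3 lists (-0.31, SE 0.13). Microglial genes had 8 of 15 higher (median 0.0054, -0.015 with quantile normalization) and endothelial and mural genes 10 of 17 higher (median 0.049). Red cell and leukocyte genes were higher for 9 of 9 measured members, with a median of 0.096 and 2 at an unadjusted p under 0.05. All 9 were among the dimmer probe sets, of which 70.6% were higher. With quantile normalization 7 of the 9 were higher, at a median of 0.083. Alas2, an enzyme of haem synthesis in red cells, read 6.01, 6.42 and 6.02 in CBP_EE, against 5.64, 5.74, 5.91, 5.68 and 5.85 in WT_SC, without overlap. Its difference was 0.38 (SE 0.13). Ependymal genes, 10 of 11 of them also dimmer, had 10 of 11 higher at a median of 0.045 (-0.063 within set 3). With quantile normalization 6 of the 11 were higher, at a median of 0.0019.

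Choroid plexus genes had 6 of 17 higher and a median of -0.024. Ttr, the transthyretin gene that marks this tissue, read 7.81, 8.04 and 8.03 in CBP_EE and 10.90, 8.59, 7.75, 7.14 and 7.18 in WT_SC. The spread of the wild-type arrays covered all enriched arrays, and the difference of -0.35 had an SE of 1.10. Meningeal genes (median 0.013, 7 of 12 higher), thalamic genes (-0.021, 6 of 12) and cortical and subicular genes (-0.021, 5 of 12) stood near the median of all probe sets.

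**Figure D4:**
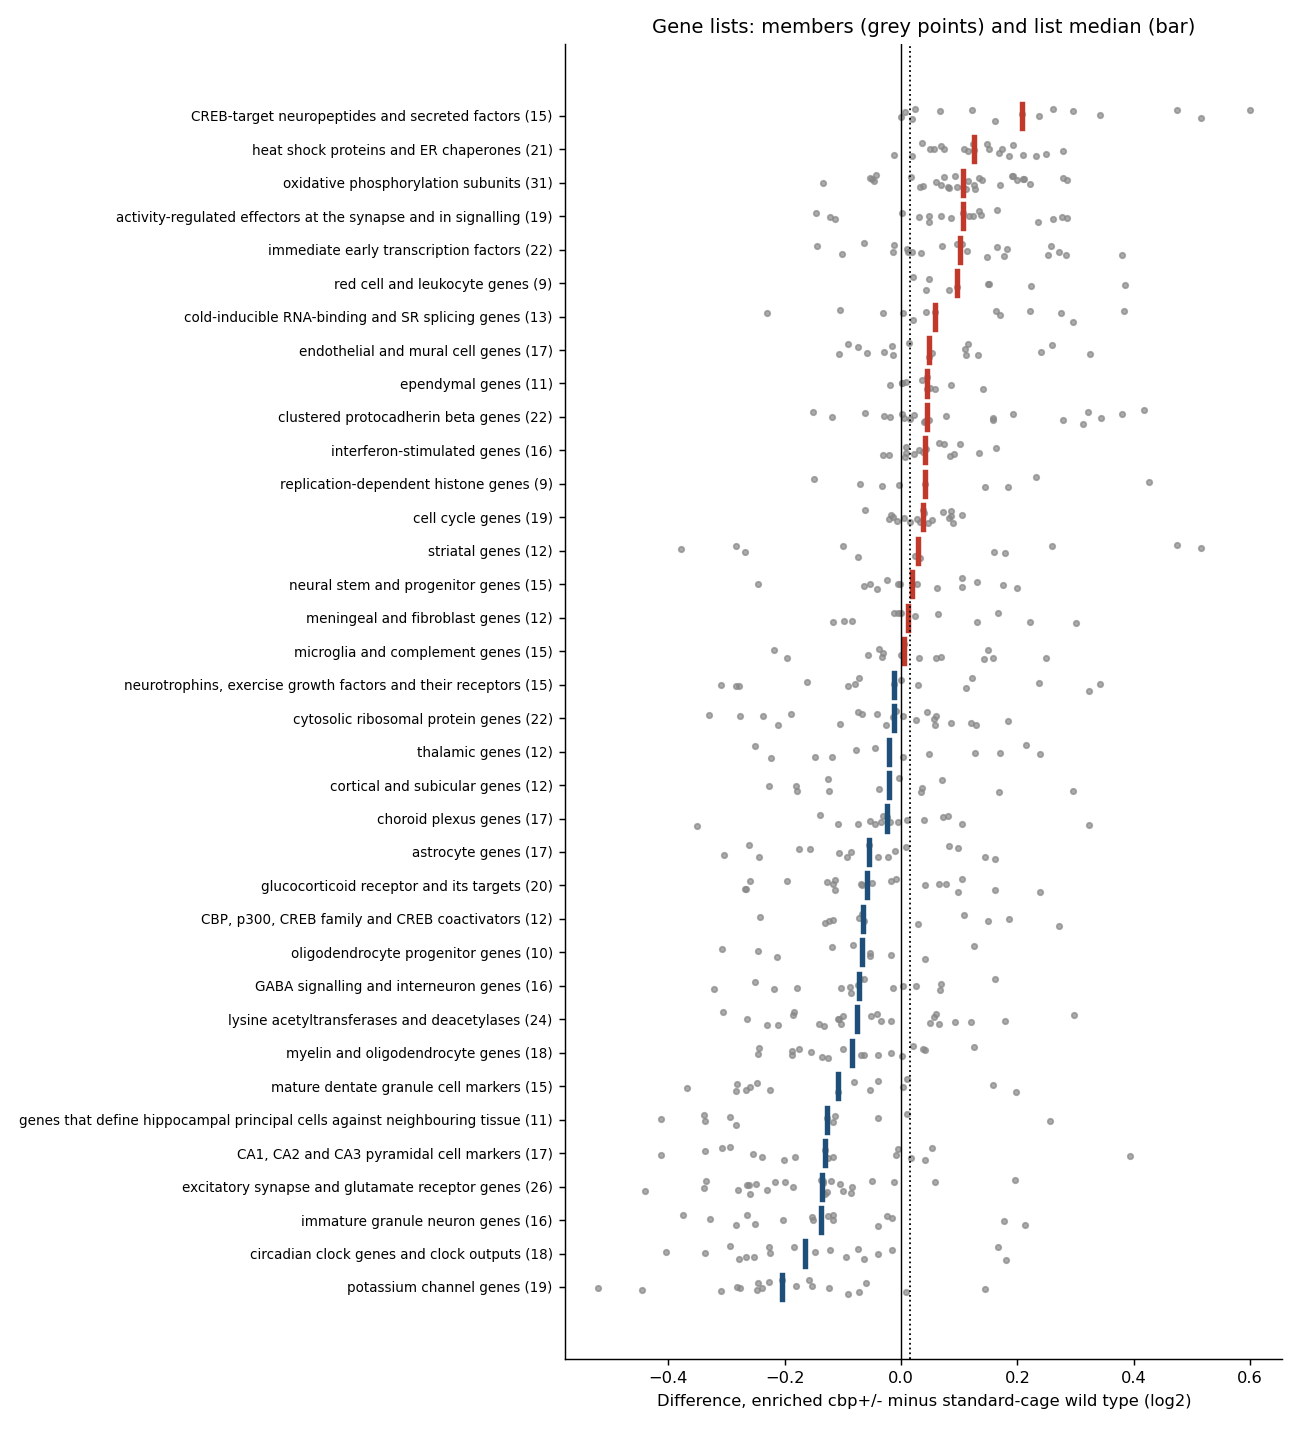
Difference of enriched cbp+/- minus standard-cage wild type (x axis, log2) for every measured member of 36 gene lists (grey points, number of members in brackets) with the list median as a bar; the dotted line is the median of all tested probe sets. CREB-target neuropeptides stand at the top (median 0.21) and potassium channel genes at the bottom (median -0.21).

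The genes with the smallest p among brighter probe sets were all short of the adjusted threshold, but in all 20 the arrays of both groups were separate, which the choice by p favours. These 20 genes also split by gene span, which the difference followed over the brighter probe sets, as described above. Those lower in CBP_EE spanned 59.3 kb (Camk2g) to 1088 kb (Asic2). Those higher in CBP_EE spanned 2.8 kb (Pcdhb2) to 52.3 kb (Bdnf). The part of gene span in their differences was not tested. Tgfbr1, a receptor of TGF-beta, had the smallest p of the whole table. It read 7.16, 7.19 and 7.11 in CBP_EE, against 7.67, 7.57, 7.43, 7.55 and 7.59 in WT_SC, without overlap. The difference was -0.41, or 0.75-fold (SE 0.083, 95% interval -0.59 to -0.23, limma adjusted p = 0.970), with -0.42 within set 1 and -0.48 within set 3. Standard-cage cbp+/- lay between, at 7.44 ± 0.11 (SD, n = 5). Pde11a, a phosphodiesterase that degrades cyclic nucleotides, read 7.35, 7.31 and 7.43 in CBP_EE, against 7.95, 7.95, 7.70, 7.72 and 7.67 in WT_SC. Its difference was -0.43 (SE 0.088), and again the groups did not overlap. Asic2, a proton-gated channel, read 8.18, 8.13 and 8.17 in CBP_EE, against 8.37, 8.37, 8.48, 8.50 and 8.42 in WT_SC, also without overlap, with a difference of -0.27 (SE 0.055). The others on this side were Marchf1 (a ubiquitin ligase) at -0.33, Myo16 (an unconventional myosin) at -0.34, Rps6ka5 (MSK1, a kinase of CREB and histone H3) at -0.29, Camk2g (a calcium-dependent kinase) at -0.33, Erbin (a scaffold) at -0.41, Cpd (a carboxypeptidase) at -0.35 and Atrn (attractin) at -0.26.

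On the higher side, Slc7a3, a transporter of cationic amino acids, read 6.95, 6.94 and 6.95 in CBP_EE, against 6.66, 6.66, 6.60, 6.34 and 6.83 in WT_SC. Its groups did not overlap, and the difference was 0.33 (SE 0.087), with 0.39 within set 1 and 0.12 within set 3. Crhbp, which binds corticotropin-releasing hormone, read 8.54, 8.35 and 8.45 in CBP_EE, against 8.06, 8.05, 8.04, 7.91 and 8.19 in WT_SC. That gene too had no overlap, with a difference of 0.40 (SE 0.13), and standard-cage cbp+/- stood near the baseline (0.043 above it). Sncg (gamma-synuclein) had 0.33, Zfp524 (a zinc finger protein) 0.37, Traf2 (an adaptor of TNF receptors) 0.27, Grem1 (a BMP antagonist) 0.28, S100a11 (a calcium-binding protein) 0.18 and Rbp4 (a retinol carrier) 0.13. Bdnf, described above, also belongs to the 10 on this side. The last was Pcdhb2, a member of the protocadherin beta cluster of neuronal adhesion proteins. It read 7.42, 7.37 and 7.47 in CBP_EE, against 7.32, 7.17, 6.91, 6.98 and 6.63 in WT_SC, without overlap. Its difference from the baseline was 0.42 (SE 0.13), beside 0.071 for CBP_EE minus CBP_SC and 0.35 for CBP_SC minus WT_SC. The 22 protocadherin beta genes, whose near-identical copies may share probes, had 17 higher and a median of 0.044.

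**Figure D5:**
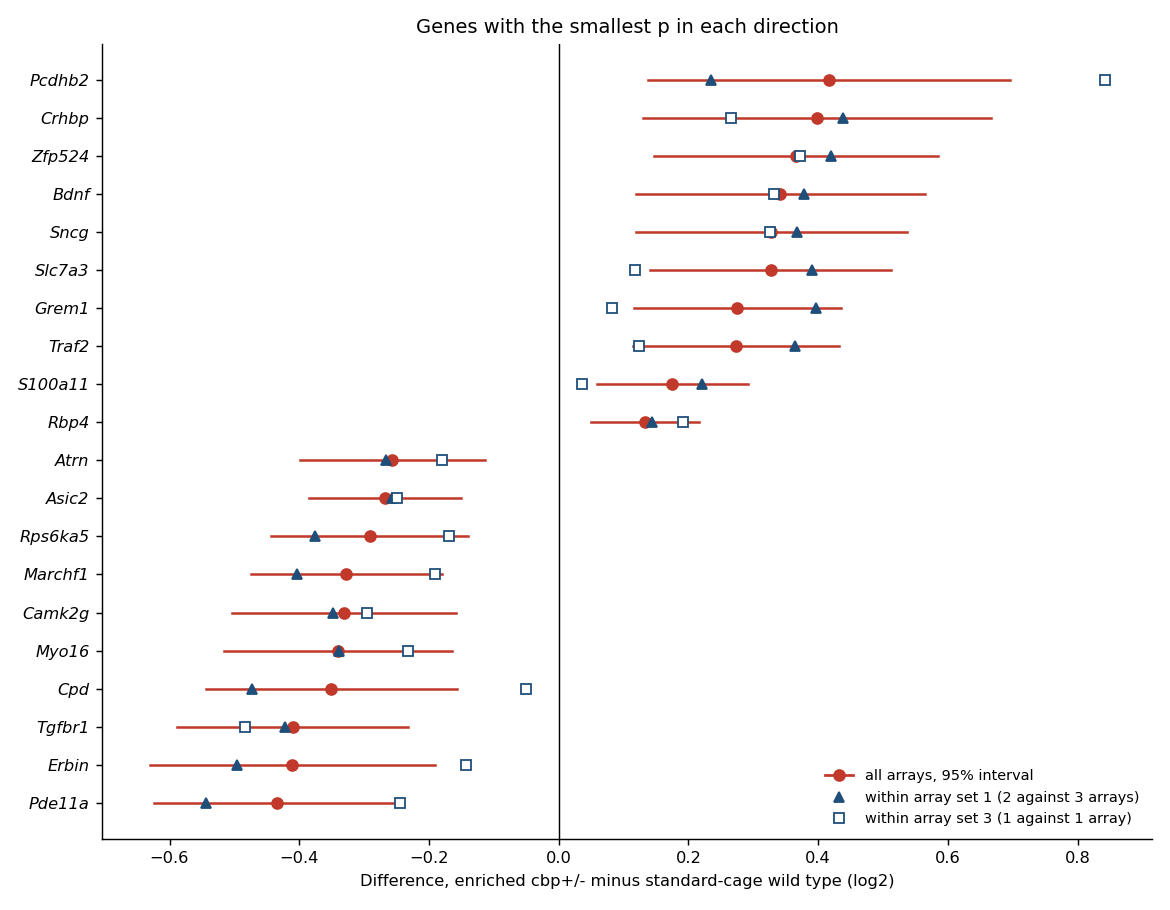
Difference of enriched cbp+/- minus standard-cage wild type (x axis, log2) for the 10 brighter genes of smallest p in each direction: points with 95% intervals for all arrays, triangles within array set 1 and open squares within array set 3. Within both sets each gene has the same sign as over all arrays, as the choice by p favours.

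The largest differences in size lay elsewhere and were chosen for mention after their values were seen. Lcn2, which encodes lipocalin 2, an iron-binding protein of the acute phase, was the 1 probe set with a difference beyond 1 log2 unit. It read 5.88, 6.26 and 7.90 in CBP_EE, against 5.28, 5.42, 5.50, 5.37 and 5.45 in WT_SC. The groups did not overlap, and the difference was 1.28, or 2.42-fold (SE 0.50, 95% interval 0.20 to 2.35). Its size rested on CBP_EE_3: it was 0.67 without that array, 0.71 within set 1 and 2.45 within set 3. CBP_SC_5 read 7.90 as well, while the other CBP_SC arrays read 5.47 to 5.89. Nos1, the neuronal nitric oxide synthase, read 7.15, 7.20 and 7.21 in CBP_EE, against 7.87, 7.89, 8.40, 8.35 and 7.63 in WT_SC, without overlap. Its difference was -0.84, or 0.56-fold (SE 0.25, 95% interval -1.38 to -0.30), with -0.86 within set 1 and -0.41 within set 3. Standard-cage cbp+/- averaged 7.77 and enriched wild type 7.48. Kcnma1, a calcium-activated potassium channel, had a difference of the same size, -0.84 (SE 0.48, 95% interval -1.88 to 0.20). It read 6.77, 7.90 and 8.88 in CBP_EE, against 8.12, 8.80, 9.14, 8.37 and 9.02 in WT_SC. These groups overlapped, and the difference was -1.09 within set 1 and -0.15 within set 3.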

How the data were processed

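RNA of 16 pools of 4 mice was read on 16 Affymetrix Mouse Gene 1.0 ST arrays. The deposited values are linear intensities, 22.12 to 16520.86 with 0 missing. They were made by RMA, per the submitters' processing notes, and the labels' protocols name GeneSpring GX. Versions, baseline transformation and the array's genome build: not given in the sources used here. Scanner files were not used here. RMA gives no detection call, so whether a dim probe set was expressed is not known. The number of arrays limits the precision.

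Groups came from the titles. Of 28815 deposited probe sets, 21780 had exactly 1 gene symbol in the platform's probe table (19935 genes), 1605 had several and 5430 were unnamed. By gene number 21689 matched RefSeq (GRCm38.p6), which served for gene span, neighbours of Crebbp and start windows. Log2 values of the deposited intensities were fitted in R 4.3.3 with limma 3.58.1 (lmFit on 4 group means over all 16 arrays, 12 residual degrees of freedom, eBayes), with Benjamini-Hochberg adjustment over all 21780 probe sets and a threshold of 0.05. The fit was tested on simulated data. Array sets came from average-linkage clustering of 1 minus Pearson correlation, cut into 4. The level of a list on 1 array was taken as its members' median deviation from their own 16-array means.

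The compared groups, 36 gene lists (652 entries, 595 measured) and the panel of 38 genes were chosen with earlier results of these data known, so lists are described by counts and medians and carry no test. Genes were named by a rule: the panel, the 3 members of each list with the smallest p, and the 10 probe sets of smallest p per direction among those at or above the median of mean log2 signal, gene models without a name left out. A gene with several probe sets stands by its brightest; those of Maml2 had opposite signs. Alternatives were quantile normalization, median centring, a filter on dim probe sets, the 8 compared arrays alone, a replicate block, an array set block, within-set values, array weights, a trended robust variance prior and leaving out each array in turn.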

Additional observations from a re-analysis of the deposited data

Results flagged for a closer look

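Among 224 sets of 5 arrays checked for a single array far from the rest (Dixon's gap ratio against a critical value of 0.71), 14 were marked. Chance alone marks about 1 in 20. In WT_SC these were Bdnf (ratio 0.761, WT_SC_4 lowest at 6.62, next 6.88), Pdyn (0.764, WT_SC_1 highest), Npas4 (0.764), Dusp1, a phosphatase of MAP kinases (0.876), and Rbp4 (0.711), each of the last 3 highest on WT_SC_3, and Steap1, a choroid plexus gene (0.721, WT_SC_1 highest). WT_SC_3 was also highest in the level of the immediate early transcription factors (0.82) and of the CBP and CREB list (0.714), and WT_SC_5 was lowest for potassium channel genes (0.729). Without WT_SC_4 the Bdnf difference of CBP_EE from WT_SC was still positive, 0.281.

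In CBP_SC the marked values were Penk (0.717) and Pdyn (0.744), both lowest on CBP_SC_4, Nptx2 (0.783, CBP_SC_5 lowest), Nr4a1 (0.85) and Dusp1 (0.716), both highest on CBP_SC_3. These arrays bear on the distance of standard-cage cbp+/- from the baseline. They do not change the difference of enriched cbp+/- from the baseline, but they enter its SE and interval through the shared spread.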

How the results depend on the processing

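Of 24 alternative fits, 23 gave 0 probe sets past the adjusted threshold in both directions, leave-one-out fits included (0 to 0). The exception was array weights, with 2394 higher and 1185 lower, where 72 of the 150 named genes passed and 7 had the other sign; weights ran from 0.261 to 8.63, and the cause was not tested. With the replicate block the count was 0 in each direction. Replicate numbers share only a number: deviations of same-numbered CBP_EE and WT_SC arrays correlated at 0.153, -0.0892 and -0.246, and 0 of 3 correlated best with their own number. Signs of the 150 named genes turned for 35 within array set 3, 6 with the replicate block, 4 with the array set block and 2 with quantile normalization; list medians turned for 11 of 36 within set 3 and 5 of 36 within set 1. The glucocorticoid list turned within set 1 (0.20). Leaving out some single array turned the median of 14 of the 36 lists. The number of arrays, the 1 pair in set 3 and sets defined from the same values limit all of these. For Bdnf the difference ran from 0.28 to 0.38 and for Npy from 0.43 to 0.69 over 10 alternatives.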

Other observations

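Glucocorticoid receptor targets had 7 of 20 members higher in CBP_EE and a median of -0.058, with Nr3c1, the receptor itself, at -0.26 (SE 0.12) and Fkbp5, its cochaperone, at -0.11 (SE 0.14). On arrays of set 1 the median was 0.20 with 15 of 20 higher, and on those of set 3 it was -0.29 with 1 of 20 higher. Interferon-stimulated genes had 14 of 16 higher at a median of 0.041, with 12 of the 16 among the dimmer probe sets, of which 70.6% were higher. With quantile normalization 11 of the 16 were higher, at a median of 0.022. Cold-inducible RNA-binding and SR splicing genes had 10 of 13 higher (median 0.059), with Tra2a, a splicing regulator, at 0.38 (SE 0.21). Its other probe sets stood at 0.043 and 0.20.

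Cell cycle genes, 18 of 19 of them dimmer, had 14 of 19 higher (median 0.037, -0.00011 with quantile normalization) and neural stem cell genes 8 of 15 (median 0.019), and 0 members of either list had an unadjusted p under 0.05. Cytosolic ribosomal protein genes had 10 of 22 higher (median -0.012, 0.0093 with quantile normalization). Replication-dependent histone genes had 5 of 9 higher (median 0.041), of which H2bc4 varied most, at 8.71, 8.53 and 9.60 in CBP_EE and 8.62, 8.63, 7.87, 8.13 and 9.37 in WT_SC. Its highest values lay on CBP_EE_3 and WT_SC_5, both of set 3. The unnamed gene model AY036118, among the largest differences in size and chosen after its values were seen, had -0.64 (SE 0.73), with 7.24, 7.28 and 9.48 in CBP_EE and 7.43, 7.52, 9.10, 9.71 and 9.44 in WT_SC.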
